A study of Drosophila melanogaster with 27 samples.

Results

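Line 7 was 1 of 4 inbred lines of *Drosophila melanogaster*, and 6 of the 27 arrays of the series measured it. Each of these arrays held RNA of a pool of males of 1 subline. The sublines came from a single founder couple by 8 generations of sib mating, so each fixed its own share of that couple's variation. Most depressed sublines (+D in the labels) had the lowest productivity of pupae among those with enough flies, and least depressed sublines (-D) had the highest. The 6 arrays were taken by these labels, 3 for each level, and were compared over all 18769 probe sets that are not controls of the array maker. Lines 5, 12 and 15, with 18 arrays, and 3 arrays of the outbred control of the same base population served as reference. No treatment or engineered allele entered any group. Values are log2 expression after RMA (robust multichip average, which adjusts the background and normalizes by quantiles), so that a difference of 1 is a 2-fold change.

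Sib mating exposes recessive harmful alleles, and sublines of one couple can differ in which of them became fixed. Expression in whole males mixes testis, accessory gland, gut, fat body, muscle and head. The fat body of the fly stores lipid and glycogen and answers to insulin and fasting, and the gut and the accessory gland secrete large amounts of protein through the endoplasmic reticulum. In such samples fewer cells of a type and less RNA per cell cannot be told apart.

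One most depressed array stood apart before any comparison. Most depressed replicate 2 had 261 probe sets over 1 log2 unit above the median of the others, and these counts ran from 42 to 99 in the rest, with replicate 3 at 99. Probe sets as far below that median numbered 36 to 122, with the highest count again in most depressed replicate 2. The markers of male tissue were high in all 6 arrays. *betaTub85D*, the tubulin of the testis, lay between 12.09 and 12.47, and *Acp26Aa*, a seminal protein of the accessory gland, lay between 12.40 and 12.96. *Mhc*, *ninaE* and *Vm26Ab* were not analysed here. The medians of the arrays ranged from 6.33 to 6.47 and an exact permutation test of the levels, two-sided, gave p = 0.6, where 0.1 is the smallest p possible.

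**Figure D1:**
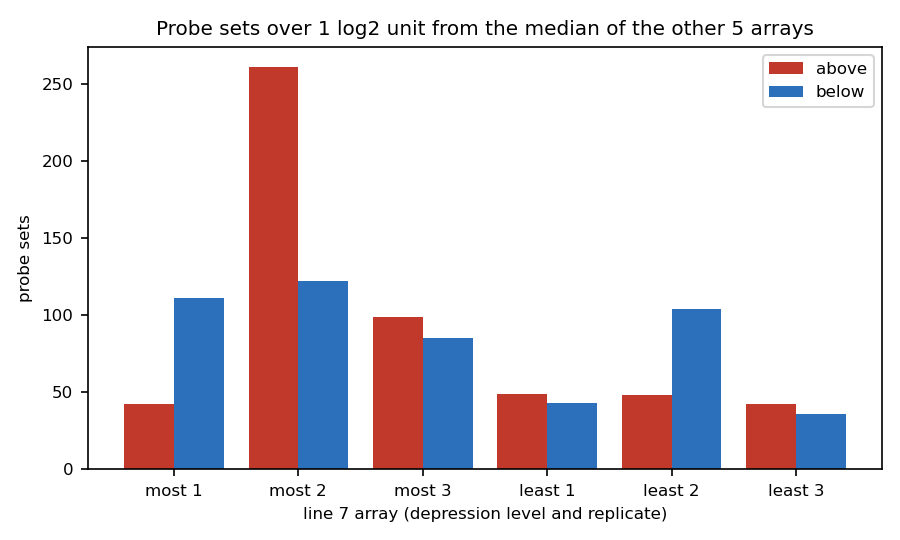
Number of probe sets (vertical axis) over 1 log2 unit above (red) or below (blue) the median of the other 5 line 7 arrays, for each array (horizontal axis). Most depressed replicate 2 had 261 probe sets above, and no other array had over 99.

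Transcripts of yolk, eggshell and oocyte set most depressed replicate 2 apart. *Yp1*, a yolk protein, was at 12.12 there, against 5.31 and 6.28 in the other most depressed sublines. The least depressed sublines had 4.06, 5.49 and 3.80 for *Yp1*. *Yp2* followed the same pattern, with 12.22 in that array and 4.01 to 6.18 in the rest. The array was alone at this level among the 6, while the highest array of the other lines was at 12.15 for *Yp1* and 11.41 for *Yp2*. The maternal genes *osk* (9.68 against 2.83 to 4.11) and *dhd* (10.56 against 4.39 to 5.26) were also high in that array alone among the 6. So was the chorion gene *Cp36* (10.28 against 4.23 to 5.23). The highest array of the other lines was at 10.13 for *osk*, 11.09 for *dhd* and 10.61 for *Cp36*. Of the 18 eggshell probe sets, 9 were higher in the most depressed sublines at an unadjusted p below 0.05 (50%, against 3.78% of all probe sets), and 2 without this array (against 4.42% of all). Their median relative to all 27 arrays was 2.56 in that array and between -0.29 and 0.03 in the other 5. No probe set of the eggshell list passed the adjusted test. The comparison was therefore also fitted without replicate 2, without replicate 3 and without both. These values are given below for some results only, so a result without them is not thereby stable.

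Only 1 probe set differed between the levels in line 7 after correction over all probe sets (limma, adjusted p below 0.05), which is 0.00533% of 18769. It was lower in the most depressed sublines, and none (0%) was higher. At an unadjusted p below 0.05 there were 709 probe sets higher (3.78%) and 807 lower (4.3%) in the most depressed sublines. The levels did not overlap in 975 probe sets with the most depressed sublines above (5.19%) and in 979 with them below (5.22%). The median difference over all probe sets was 0.0012. The replicate number set the precision, and apart from the 1 gene described next the genes below are named by their rank or by their gene list, not as changes that passed the test.

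The gene was *salm* (*spalt major*, CG6464), which encodes a zinc finger transcription factor known from the wing, the photoreceptors and the identity of the flight muscle. Its values were 6.17, 6.42 and 6.20 in the most depressed sublines. In the least depressed sublines they were 7.20, 7.28 and 7.17. All 3 most depressed sublines lay below every other array of the series, since the control mean was 7.06 ± 0.08 (SD, 3 arrays) and the 18 arrays of the other lines ran from 6.79 to 7.49. The expression of *salm* fell by 0.95 on the log2 scale (SE 0.12, limma, adjusted p = 0.000956), or 1.94-fold. Without most depressed replicate 2 the difference was -1.03 (limma, adjusted p = 0.000909), without replicate 3 it was -0.92 (adjusted p = 0.0148), and without both it was -1.05 (adjusted p = 0.0352). The call was lost with the 6 arrays alone (adjusted p = 0.259) and with the range of the sample codes as a covariate (difference -0.91, adjusted p = 0.0582).

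The sample codes fall into a low and a high range, and 6 arrays of lines 5, 12 and 15 carry a double code with a number of each. What the codes mean is not given, and the covariate fit used 3 classes (low, high and double). In line 7 the 3 most depressed arrays and least depressed replicate 3 were in the low range, and least depressed replicates 1 and 2 in the high range. Depression level and code range are therefore partly joined, and 1 least depressed array alone separates them within the line. The other lines are joined in the same direction. Their most depressed arrays had low codes, except 1 double code in line 5. Their least depressed arrays had double or high codes in lines 5 and 12, and in line 15 1 was double and 2 were low. For *salm*, least depressed replicate 3 had 7.17, and the 2 arrays of the high range had 7.20 and 7.28.

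Differences of *salm* in the other lines had the same sign but were smaller, with -0.42 in line 5, -0.15 in line 12 and -0.48 in line 15. The difference of line 7 from their mean was -0.60 (SE 0.14, limma, unadjusted p = 0.00021, adjusted p = 0.285), and did not pass the test. Its paralogue *salr* and the gene *Cog8* differed by -0.08 each in line 7 (limma, unadjusted p = 0.61 and 0.49). Among 35 probe sets of muscle and sarcomere genes, 1 was lower at an unadjusted p below 0.05 (2.86%, against 4.3% of all). None was higher (against 3.78% of all), and their median difference was 0.02. The lower one was a probe set of *sls*, which encodes titin-like proteins of the sarcomere. It was at 7.35, 7.37 and 7.28 in the most depressed and 7.92, 7.43 and 8.06 in the least depressed sublines. The actin of the flight muscle, *Act88F*, was at 12.39, 14 and 13.77 against 13.57, 11.99 and 13.83, so the levels overlapped throughout. With the code range as a covariate 5 of the 35 muscle and sarcomere probe sets were lower at an unadjusted p below 0.05 (against 2.96% of all). The median of the list was then -0.25, and it was -0.20 without most depressed replicates 2 and 3.

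**Figure D2:**
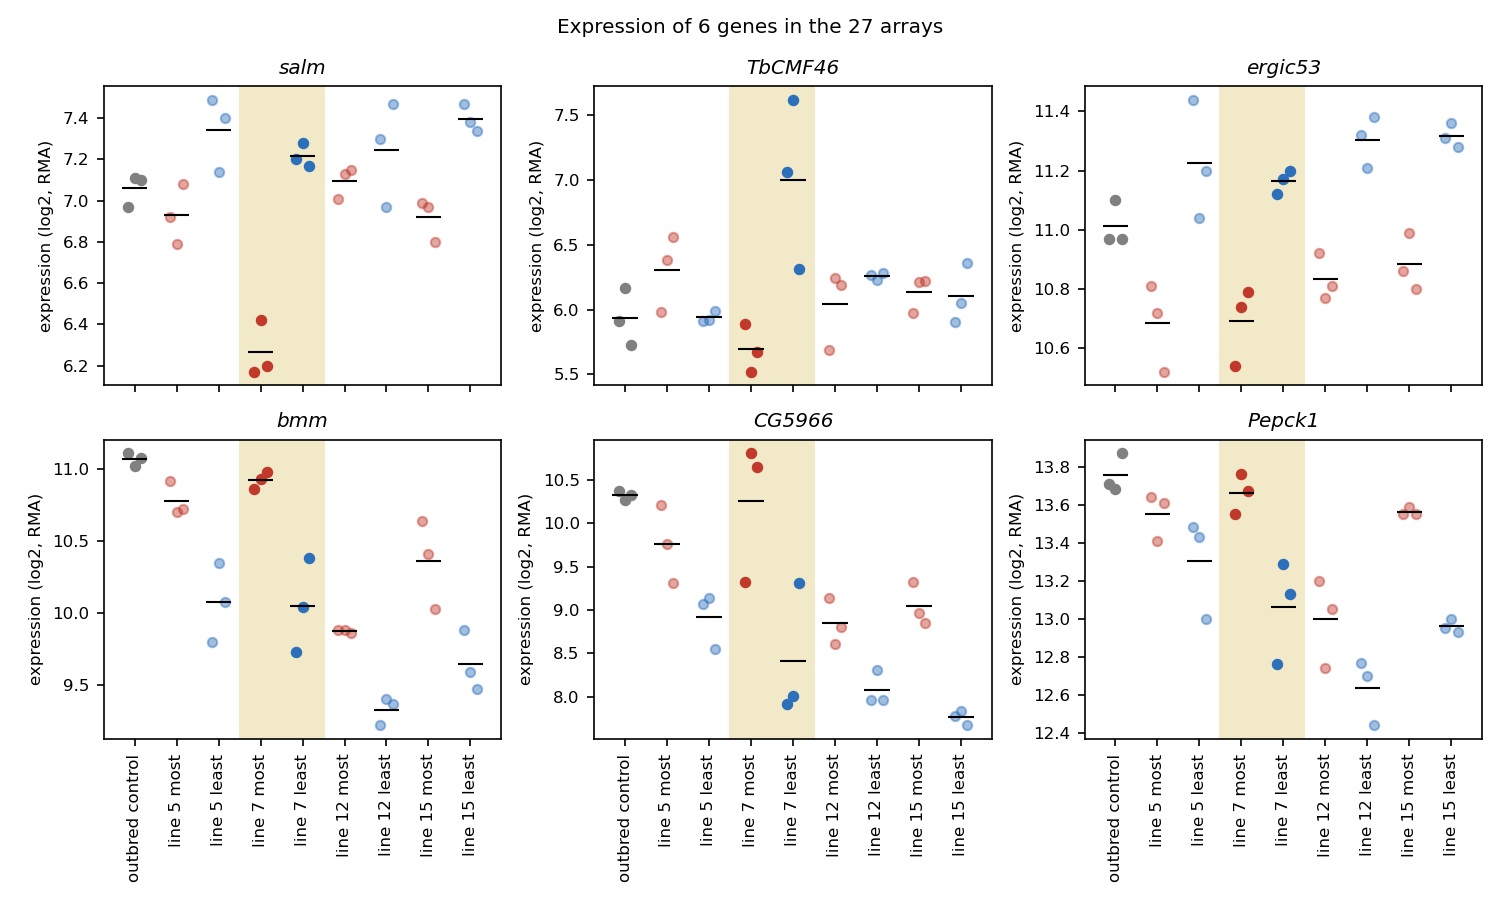
Expression (log2, RMA) of 6 genes in each of the 27 arrays, grouped on the horizontal axis by line and depression level, with red for most depressed, blue for least depressed, grey for the control, a bar at each group mean and shading over line 7. The 3 most depressed arrays of line 7 are lowest of all 27 for *salm*, and their *bmm* values, 10.86 to 10.98, are close to the control mean of 11.07.

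*bmm* and *CG5966*, a pair of lipase genes, had the smallest p among those higher in the most depressed sublines. The 15 probe sets with the smallest p and no overlap between levels were taken in each direction, after their values were seen. *bmm* (*brummer*), the main lipase of fat body lipid droplets, was at 10.86, 10.93 and 10.98 in the most depressed sublines. The least depressed sublines had 9.73, 10.04 and 10.38. The difference was 0.87 (SE 0.15, limma, adjusted p = 0.061), 1.83-fold, and the control mean, 11.07 ± 0.04 (SD, 3 arrays), was near the most depressed sublines. In lines 5, 12 and 15 *bmm* also stood higher in the most depressed sublines, by 0.70, 0.54 and 0.71, and the contrast of line 7 with their mean was 0.22 (limma, unadjusted p = 0.22).

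*CG5966*, whose lipase is of the pancreatic type, had a wider spread. It was at 9.32, 10.81 and 10.65 in the most depressed sublines and at 7.92, 8.01 and 9.31 in the least depressed ones. The difference was 1.85 (SE 0.33, limma, adjusted p = 0.0641), the lowest most depressed and the highest least depressed array being nearly equal. Without most depressed replicates 2 and 3 it was 0.91 (adjusted p = 0.877). Further down this order was *Pepck1*, the enzyme that commits carbon to gluconeogenesis, at 13.55, 13.76 and 13.67 against 12.76, 13.29 and 13.13. Its difference of 0.60 (SE 0.13) had an adjusted p of 0.122 (limma), with a control mean of 13.75. For all 3 genes the control mean was nearer to the most depressed sublines than to the least depressed ones. The same held for 58.3% of all probe sets, and for 58.3% of those higher at an unadjusted p below 0.05.

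Of 37 probe sets of lipid storage and use, 7 were higher and 4 lower in the most depressed sublines at an unadjusted p below 0.05, 18.9% and 10.8% against 3.78% and 4.3% of all probe sets. The median of the list was -0.02, so it had no common direction. Besides *bmm*, the higher members were *Lip4*, a lipase (0.77), *whd*, the carnitine palmitoyltransferase of fatty acid import into mitochondria (0.50), *LpR2*, a lipophorin receptor (0.58), *Lsd-2*, a perilipin of the droplet coat (0.58), *mdy*, an acyltransferase of triacylglycerol synthesis (0.32), and *Lpin*, the phosphatidate phosphatase (0.28). The lower members were the fatty acid synthases *FASN3* and *FASN1*, a probe set of *AkhR* and *Mtp*. *FASN3* was at 9.45, 9.40 and 9.75 in the most depressed and 10.44, 10.41 and 10.33 in the least depressed sublines, a difference of -0.86 (SE 0.19, limma, adjusted p = 0.122). *FASN1* differed by -0.23 (SE 0.10). *AkhR*, the receptor of the adipokinetic hormone, had a dim probe set with -0.51 and a brighter one with -0.38, and only the first had an unadjusted p below 0.05. *mino*, a glycerol-3-phosphate acyltransferase outside the list, stood higher by 0.50, with 10.81 to 10.90 against 10.24 to 10.49. With the code range as a covariate 3 of the 37 were higher at an unadjusted p below 0.05, against 3.94% of all probe sets, and *whd* and *Lsd-2* were at 0.22 and 0.17.

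In the list of fasting and insulin signalling, 4 of 15 probe sets were higher at an unadjusted p below 0.05 (26.7%, against 3.78% of all) and 2 lower (13.3%, against 4.3%), with a median of 0.21. *Pepck1* was joined by *chico*, the insulin receptor substrate (0.25), *puc*, a phosphatase of the JNK pathway (0.31), and *REPTOR-BP*, a transcription factor partner of the TOR response (0.36). Only *Pepck1* of the 15 was higher with the code range as a covariate, and *chico*, *puc* and *REPTOR-BP* had unadjusted p of 0.18, 0.14 and 0.14 (limma). The lower genes were *sug* (*sugarbabe*), a transcription factor induced by sugar, and *tobi*, a glucosidase gene known to answer to the insulin-producing cells of the brain. *sug* was at 8.25, 7.85 and 8.05 in the most depressed sublines and at 9.10, 9.56 and 8.27 in the least depressed ones. *tobi* was at 11.78, 11.44 and 11.10 against 12.32, 12.63 and 11.80. The control means, 7.69 for *sug* and 9.68 for *tobi*, lay below all 6 arrays. In both genes least depressed replicate 3, the array with a low code, was the nearest to the most depressed sublines. With the code range as a covariate the differences were -0.44 for *sug* and -0.43 for *tobi* (limma, unadjusted p = 0.22 and 0.23). *tobi* stood higher in the most depressed sublines of line 5 (1.73) and line 15 (0.52) and lower in line 12 (-0.42), and the contrast of line 7 with the other lines had an unadjusted p of 0.00044 (limma).

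Other enzymes of sugar digestion followed *tobi*. In this list 4 of 12 probe sets were lower at an unadjusted p below 0.05 (33.3%, against 4.3% of all) and none was higher, with a median of -0.52. The other 3 were the gut maltases *Mal-A4* (-0.73), *Mal-A8* (-0.60) and *Mal-A1* (-0.49). *Mal-A1* was at 12.51, 12.63 and 12.60 in the most depressed sublines and at 13.22, 13.41 and 12.56 in the least depressed ones, so that replicate 3 of the latter overlapped with the former. None of the 12 had an unadjusted p below 0.05 with the code range as a covariate (against 2.96% of all that were lower), and the median was then -0.29. The part of the code range in these differences was not tested beyond that fit.

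The list with the highest number of lower probe sets was that of the endoplasmic reticulum and secretion. Of its 45 probe sets, 21 were lower in the most depressed sublines at an unadjusted p below 0.05 (46.7%, against 4.3% of all). Those higher numbered 2 (4.44%, against 3.78% of all). The median difference was -0.18, and 40 of the 45 were negative. The medians of the list relative to all 27 arrays were -0.16, -0.08 and -0.03 in the most depressed sublines, and 0.05, 0.10 and 0.08 in the least depressed ones. In the 3 control arrays they ran from -0.04 to 0.02. The levels did not overlap in 23 probe sets with the most depressed sublines below (against 5.22% of all). No member passed the adjusted test.

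The lower members act at several steps of secretion. *TRAM*, a protein beside the translocation channel, was between 9.93 and 10.10 in the most depressed sublines and at 10.45, 10.53 and 10.46 in the least depressed ones, and differed by -0.47 (SE 0.12, limma, unadjusted p = 0.0005). *Sec61beta* and *Sec61gamma*, subunits of the channel, differed by -0.38 (SE 0.10) and -0.33 (SE 0.08), while the main subunit, *Sec61alpha*, had -0.18 (unadjusted p = 0.11). *Stt3B* and *OstDelta* of the oligosaccharyltransferase, which adds glycans, differed by -0.33 and -0.28. The signal recognition particle and its receptor were lower in *SrpRalpha* (-0.25), *Srp19* (-0.24) and *Srp68* (-0.21). Among coat and cargo proteins, *Surf4* differed by -0.31, *deltaCOP* by -0.26, *Sec13* by -0.23 and *betaCOP* by -0.20. The chaperone *Hsc70-3* (BiP) was at 11.80, 11.94 and 12.15 against 12.10, 12.23 and 12.34, with an overlap. Both higher probe sets belonged to *Ire1*, the sensor of unfolded proteins, with 0.39 and 0.22.

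2 genes outside the list that act in the same organelle were among the 15 lower probe sets with the smallest p. *CG5885*, the gamma subunit of the translocon-associated protein, was at 10.36, 10.54 and 10.50 in the most depressed sublines. It was at 10.99, 11.10 and 10.80 in the least depressed ones, a difference of -0.50 (SE 0.10, limma, adjusted p = 0.0783). *ergic53*, a lectin that carries glycoproteins out of the endoplasmic reticulum, appeared with both of its probe sets, which differed by -0.47 (adjusted p = 0.0795) and -0.55 (adjusted p = 0.122). The first was at 10.54 to 10.79 in the most depressed and 11.12 to 11.20 in the least depressed sublines.

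**Figure D3:**
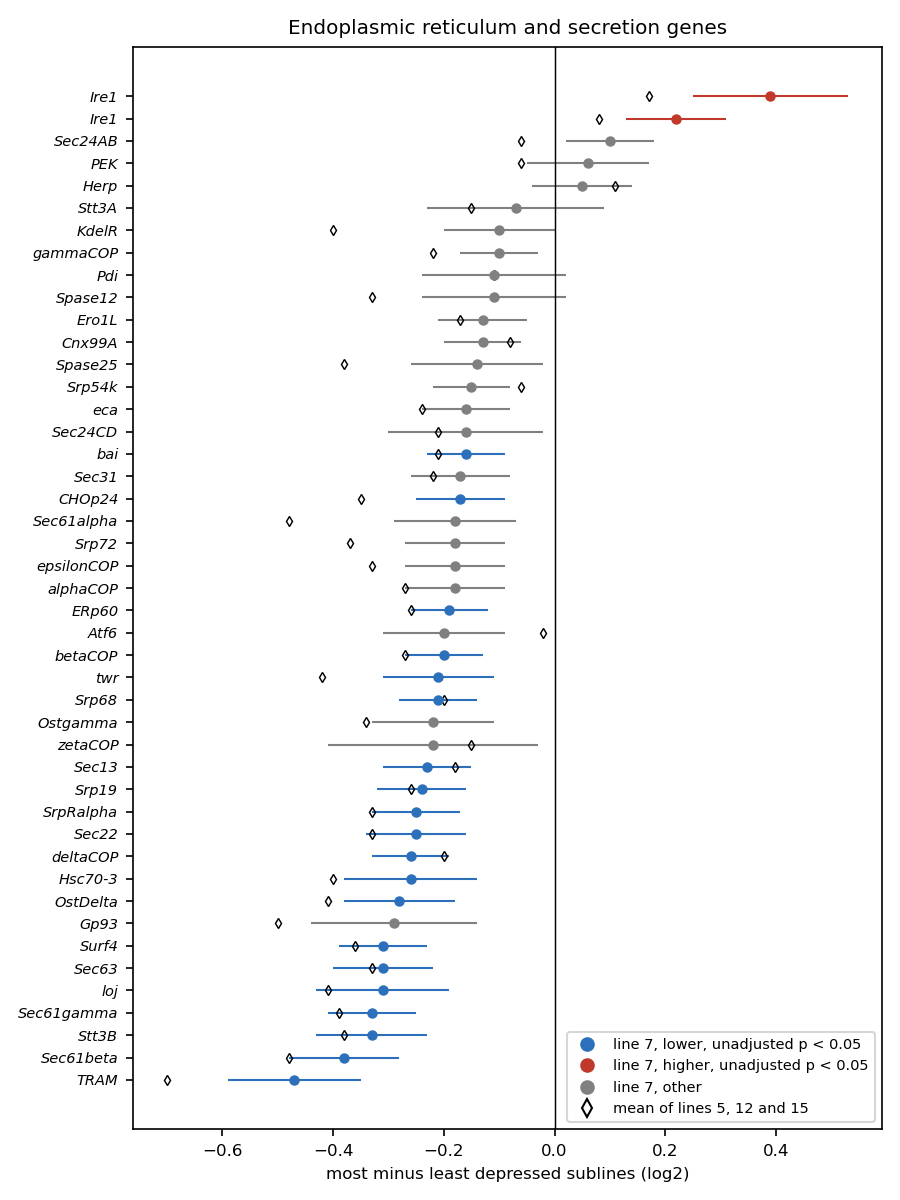
Difference between most and least depressed sublines (log2, horizontal axis) for the 45 probe sets of the endoplasmic reticulum and secretion list (vertical axis), with points and bars for line 7 and its standard error, and diamonds for the mean of lines 5, 12 and 15. In line 7, 40 of 45 are negative, and for the mean of the other lines 42 are.

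The other lines had the same sign. The medians of the list were -0.24, -0.30 and -0.27 in lines 5, 12 and 15. Of the 45 probe sets 2 had an unadjusted p below 0.05 for the contrast of line 7 with the mean of these lines, where 6.16% of all probe sets did. Without most depressed replicate 2 there were 17 lower members (against 4.19% of all probe sets), without replicate 3 there were 28 (3.65% of all), and without both there were 19 (2.46% of all), with medians of -0.19, -0.22 and -0.25. With the code range as a covariate 12 were lower (2.96% of all), with a median of -0.17.

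Aminoacyl-tRNA synthetases, which load amino acids on tRNA, were lower in 5 of 19 probe sets at an unadjusted p below 0.05 (26.3%, against 4.3% of all). The median was -0.11. The 5 were *AlaRS*, *GlyRS*, *AsnRS*, *TrpRS* and *AsnS*, the last an asparagine synthetase that the list also holds. Differences ran from -0.45 for *AsnS* to -0.15 for *TrpRS*. With the code range as a covariate only *AsnS* had an unadjusted p below 0.05. None of 48 probe sets of the cytosolic ribosome had one in the main comparison, where 3.78% of all were higher and 4.3% lower. Their median was -0.02.

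Several digestive and lysosomal enzymes were among the lower genes, and *CG7025* ranked with them by its p. It was at 5.98, 8.10 and 6.76 in the most depressed sublines and at 9.14, 8.99 and 8.15 in the least depressed ones. It differed by -1.81 (SE 0.36, limma, adjusted p = 0.0795), 3.51-fold, with a control mean of 8.51. Without most depressed replicate 2, the highest of its group, it passed the test (difference -2.39, limma, adjusted p = 0.000909), and also without replicates 2 and 3 (adjusted p = 0.00457), whereas without replicate 3 it did not (adjusted p = 0.258). *CG8773* and *CG31233*, predicted aminopeptidases, differed by -0.76 and -0.79, and in neither did the levels overlap. Of 26 Jonah and trypsin-like proteases 4 were lower at an unadjusted p below 0.05 (15.4%, against 4.3% of all), namely *Jon65Aii*, *Jon66Ci*, *etaTry* and *lambdaTry*. Of these 26, 2 were lower without most depressed replicate 2 (against 4.19% of all) and 5 without replicate 3 (against 3.65%). *Jon65Aii* was at 10.60, 8.20 and 9.07 against 10.65, 10.33 and 10.61. It differed by -0.70 without replicate 2 (limma, unadjusted p = 0.25) and by 0.07 without replicates 2 and 3. The lysosomal alpha-mannosidases had 4 of 6 probe sets lower (66.7%, against 4.3% of all), with a median of -0.90. None was lower without most depressed replicate 2 or with the code range as a covariate, and 6 were without replicate 3. *LManV* was at 10.29, 9.92 and 11.60 against 11.71, 11.78 and 11.51, so most depressed replicate 3 was at the level of the least depressed sublines.

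One gut protease had lower values in the most depressed sublines of the other lines but not in line 7. *Jon25Bii* was at 10.99, 11.28 and 11.64 in the most depressed and at 10.96, 11.49 and 11.50 in the least depressed sublines, a difference of -0.01. In lines 5, 12 and 15 it differed by -2.20, -2.20 and -2.32. The contrast of line 7 with their mean was 2.23 (SE 0.39, limma, unadjusted p = 1.1e-05, adjusted p = 0.211), the smallest unadjusted p of this contrast among probe sets of 1 gene. No probe set (0%) passed the adjusted test of the contrast, and 1157 had an unadjusted p below 0.05 (6.16%). *CG14820* behaved alike, with -0.13 in line 7 and -1.47, -1.06 and -1.45 in the other lines.

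In the opposite direction *TbCMF46*, a gene named for a flagellar protein of trypanosomes, had the smallest p of the contrast. Its values were 5.89, 5.52 and 5.67 in the most depressed sublines, near the control mean of 5.94 and the lower end of the other lines, which ran from 5.69 to 6.56. In the least depressed sublines they were 7.06, 7.62 and 6.31. The difference was -1.30 (SE 0.23, limma, adjusted p = 0.061), 2.47-fold, and that from the other lines was -1.36 (unadjusted p = 3.3e-05, adjusted p = 0.271). Least depressed replicates 1 and 2, the arrays with high codes, were above every array of the other lines, and replicate 3 was not. With the code range as a covariate the difference was -0.96 (unadjusted p = 0.0014). *betaTub60D*, a beta tubulin, was at 9.51, 9.29 and 9.40 against 10.10, 10.09 and 10.17, so that all 3 least depressed sublines were above the highest value of the other lines, 10.07, and the control mean, 9.32. *erm*, a zinc finger transcription factor gene, was at 4.84, 4.72 and 4.53 against 5.17, 5.26 and 5.08, and the contrast with the other lines was -0.74 (limma, unadjusted p = 6e-05). *CG6628* stood apart in the same sublines in the other direction, with 8.87, 9.26 and 8.90 in the least depressed sublines, 9.50, 9.96 and 10.04 in the most depressed ones and no value below 9.47 in the other lines.

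**Figure D4:**
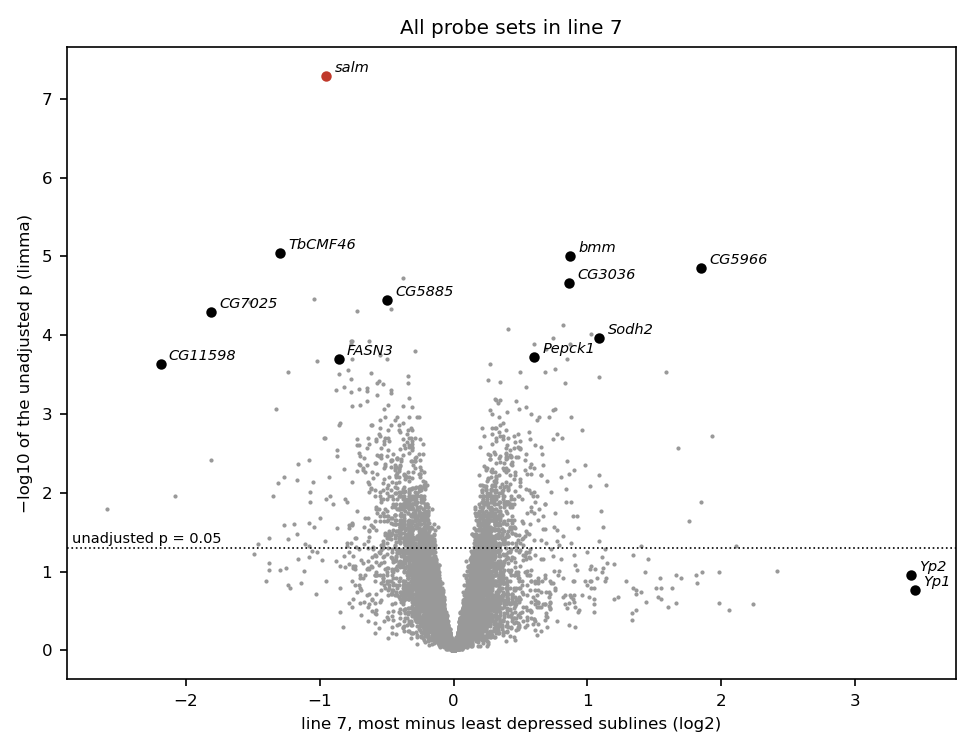
Difference between most and least depressed sublines of line 7 (log2, horizontal axis) against minus the log10 of the unadjusted limma p (vertical axis) for 18769 probe sets, with *salm*, the one past the adjusted threshold, in red, some named genes in black and a dotted line at an unadjusted p of 0.05. *Yp1* and *Yp2* have the largest differences, 3.45 and 3.42, and lie below the dotted line.

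Further genes with small p included *arg* (arginase, 0.74), *Sodh2* (a sorbitol dehydrogenase, 1.09), *Atg18b* (an autophagy gene, 0.87), *Ptpmeg* (a tyrosine phosphatase, 0.41) and *CG3036* (0.86) on the higher side. On the lower side were *svp*, a nuclear receptor (-0.63), *Galphaf*, a G protein subunit (-0.77), *Aptx*, the DNA repair gene aprataxin (-0.29), *CG15170* (-1.04) and *CG32984* (-1.52). *Sodh2* was at 8.08, 8.72 and 8.52 against 7.36, 7.52 and 7.18. *svp* was at 7.46, 7.54 and 7.17 against 8.03, 8.13 and 7.90. *Aptx* had low values in all 6 arrays, at 3.36, 3.25 and 3.42 against 3.54, 3.73 and 3.62. *CG32984* was at 3.48, 3.31 and 3.44 against 5.45, 5.06 and 4.28. All 10 were chosen for levels that do not overlap, and none passed the adjusted test.

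Immune genes were higher in some members. Of 38 probe sets of peptidoglycan recognition and immune signalling, 6 were higher at an unadjusted p below 0.05 (15.8%, against 3.78% of all) and none was lower, with a median of 0.04. Most of the 6 act in the Toll and Imd pathways, which switch on NF-kappaB factors after infection. *cact*, the cytoplasmic inhibitor of the Toll pathway, was at 10.20, 10.31 and 10.35 against 9.73, 9.73 and 9.97 (difference 0.47, limma, unadjusted p = 0.00069). *Rel*, the factor of the Imd pathway, was at 10.15, 10.06 and 10.54 against 9.62, 9.47 and 9.92, and the receptor gene *Tl* differed by 0.43. The factor gene *dl* had a probe set with 0.27 and another with -0.29 (unadjusted p = 0.081). *Tab2* and *PGRP-LF* completed the 6, with 0.34 and 0.68. The difference of *PGRP-LF* was 0.35 without most depressed replicate 3 (limma, unadjusted p = 0.17). Of 22 antimicrobial peptide and Bomanin probe sets 4 were higher (18.2%, against 3.78% of all): *Drsl4* (0.81), *BomS6* (0.40), *BomBc2* (0.39) and *Drsl1* (0.28). *Drsl4* was at 11.64, 11.46 and 11.73 against 10.95, 11.04 and 10.41. Without most depressed replicate 3 *BomS6* and *Drsl1* differed by 0.36 and 0.25 (limma, unadjusted p = 0.086 and 0.058). *Rel* differed by 0.58 in line 7 and by 0.75, 0.67 and 0.55 in lines 5, 12 and 15. Of the 38 immune signalling probe sets 3 were higher with the code range as a covariate (against 3.94% of all), and the differences were 0.22 for *Rel*, 0.33 for *PGRP-LF* and 0.18 for the higher probe set of *dl* (limma, unadjusted p = 0.25, 0.27 and 0.18).

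UDP-glycosyltransferases, which conjugate small molecules, had 8 of 35 probe sets lower at an unadjusted p below 0.05 (22.9%, against 4.3% of all). Those higher numbered 2 (5.71%, against 3.78% of all). *Ugt37A3* was the lowest, at 5.91, 5.72 and 5.57 against 6.99, 6.75 and 7.19, a difference of -1.24 (SE 0.29, limma, unadjusted p = 0.00029). A total of 4 were lower with the code range as a covariate (against 2.96% of all). Of 61 probe sets of testis and sperm 1 was higher at an unadjusted p below 0.05 (1.64%, against 3.78% of all) and none lower. Of 32 of the accessory gland and ejaculatory tract 2 were lower (6.25%, against 4.3% of all) and none higher. Without most depressed replicate 3, 4 of these were lower (against 3.65% of all). Phototransduction had none of 33. Oxidative phosphorylation had 2 of 84, both higher (2.38%, against 3.78% of all), with a median of 0.14.

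A group of 6 genes that the study examined together on these arrays had graded values in the most depressed sublines. They were *CG11598*, *CG11414*, *CG5509*, *betaTub65B*, *CG3610* and *Rsph4a*, a radial spoke gene of the axoneme. *CG11598* was at 10.14, 8.85 and 6.62 in most depressed replicates 1, 2 and 3, and at 10.66, 10.49 and 11.03 in the least depressed sublines. *CG5509* was at 8.75, 7.88 and 5.82, against 8.94, 8.65 and 8.65. For *CG11414* the values were 8.70, 7.95 and 4.70, against 9.13, 8.70 and 8.96. In all 6 genes replicate 3 was the lowest of the 6 arrays, replicate 2 the next, and replicate 1 was close to the least depressed sublines. *betaTub65B* (6.56 in replicate 3), *CG3610* (8.12) and *Rsph4a* (8.12) had the same order. The difference between levels was -2.19 for *CG11598* (SE 0.50, limma, adjusted p = 0.127) and did not pass the test for any of the 6. Since the study chose them on these samples, the pattern is a description.

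The study designed primers to sequence the stretches that the array reads in these genes. For *CG11598* it reports a fixed difference from the array probes in the most depressed sample sequenced, and none in least depressed or control samples. The least depressed samples had polymorphic sites in this gene, however. Between most and least depressed samples the study lists no fixed difference in it. No most depressed sample was sequenced for *CG5509*. The paper rejects such mismatches as a source of misleading expression values. The primers of the 2 largest graded genes on chromosome 3R show what was amplified, written 5′ to 3′ with no part in capitals:
CG11598 forward: cggagtacaacaagttggtcaag
CG11598 reverse: attcgtttatgaagtgaaaggttat
CG5509 forward: gatgctcgcacctacggatt
CG5509 reverse: tccagtccatttttgcctttg

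Other genes split the 6 arrays across the levels rather than between them. In 80 probe sets the largest gap between neighbouring values of the 6 arrays was at least 2 log2 units. None of these gaps lay between the 2 levels. In 57 of them 1 array was high, 52 times most depressed replicate 2, in 10 of them 1 array was low, and in 13 the split was into groups of 2 to 4 arrays.

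The arrays low on their own were most often most depressed replicate 3, in 5 probe sets. Besides *CG11598*, *CG11414* and *CG5509* these were *cpa*, an actin capping protein (5.10 against 8.93 to 9.31), and *Mob2*, a cofactor of NDR kinases (5.86 against 8.35 to 9.68). The same subline alone kept *Pis*, phosphatidylinositol synthase, at 10.80. The other 5 arrays had 5.69, 7.46, 8.36, 5.81 and 5.43, while the control mean was 10.12 and the other lines ran from 10.55 to 11.06. For *Pis*, then, 5 of the 6 line 7 arrays were below every array of the other lines.

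A total of 7 probe sets were low in most depressed replicate 1 and least depressed replicate 2 and high in the other 4 arrays. *Acp65Aa*, an adult cuticle protein, was at 7.17 and 7.48 in these 2, and at 11.29, 11.27, 10.52 and 11.18 in the others. *Cpr62Bc*, *Cpr92F*, *Vajk2*, *Vajk3* and *CG8736* had the same 2 arrays low. *Fbp1*, a receptor of larval serum proteins in the fat body, was at 4.28 and 3.90 in the same sublines, at 10.02, 8.68 and 7.02 in most depressed replicates 2 and 3 and least depressed replicate 3, and at 4.79 in least depressed replicate 1. The other lines ranged for *Acp65Aa* from 5.95 to 12.29. *Act88F* also had its 2 lowest values in these sublines, 12.39 and 11.99.

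Some genes were near 2 fixed levels. *CG12934* was at 8.86, 8.99 and 9.28 in most depressed replicates 1 and 3 and least depressed replicate 3, and at 4.93, 5.37 and 6.02 in the rest. *Zip102B*, a zinc transporter gene, split the same arrays, with 7.81, 8.11 and 8.24 against 5.18, 4.98 and 4.73. *Cyp12d1-d*, a cytochrome P450, was low in most depressed replicate 1 and least depressed replicate 3 (4.58 and 3.82) and at 8.02 to 9.45 in the others, above all 18 arrays of the other lines. *Hr38*, a nuclear receptor gene induced in active neurons, followed the sample codes. It was at 8.40, 8.08, 8.62 and 8.33 in the 4 arrays of the low range and at 5.60 and 5.40 in the high range.

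**Figure D5:**
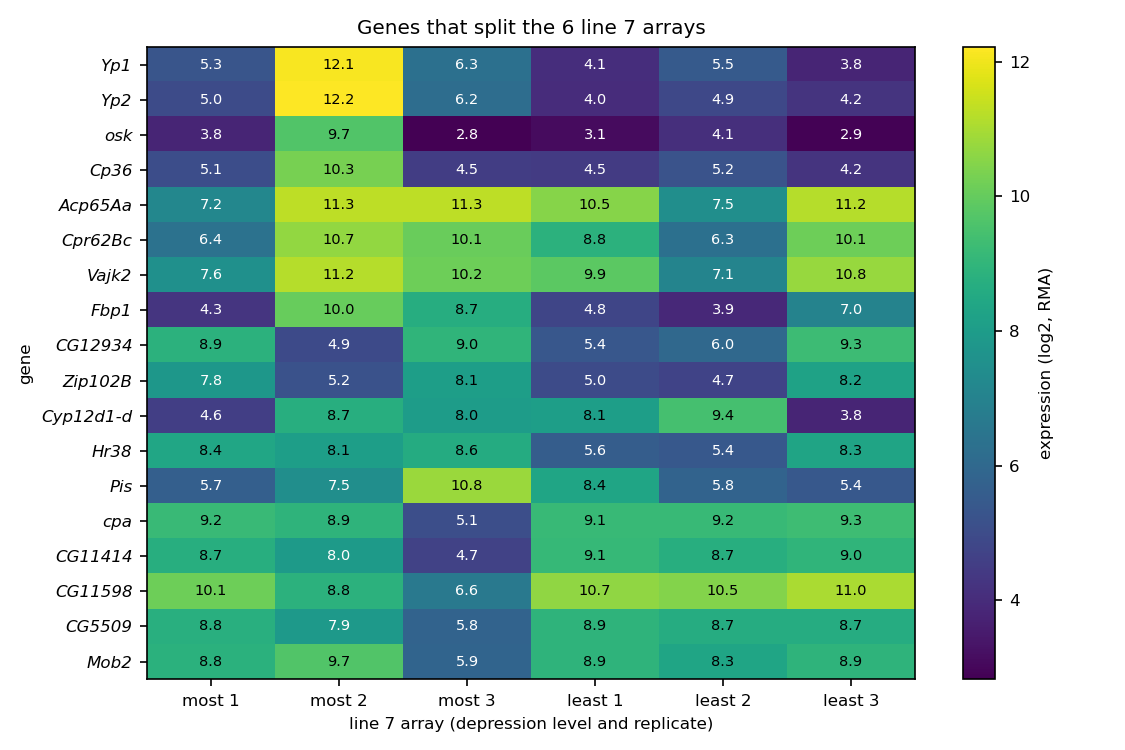
Expression (log2, RMA, by colour and number) of 18 genes (rows) in the 6 line 7 arrays (columns). The yolk and oocyte genes at the top are high in most depressed replicate 2 alone, the cuticle genes below are low in most depressed replicate 1 and least depressed replicate 2, and the 5 genes at the bottom are low in most depressed replicate 3.

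Differences in line 7 followed those of the other lines in part. Over the 18769 probe sets the difference of line 7 had a Pearson correlation of 0.355 with the mean difference of lines 5, 12 and 15, across genes that are not independent of each other. No array is shared between these differences, but depression level and code range are partly joined in the other lines too. The part of the code range in this likeness was not tested. The sign was the same in 58.2% of all probe sets and in 70.4% of the 1516 with an unadjusted p below 0.05 in line 7. Without most depressed replicate 2 the latter share was 65%, of 1615 probe sets, and without replicate 3 it was 78%, of 1303.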

How the data were processed

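RNA was measured with Affymetrix Drosophila Genome 2.0 arrays. The authors deposited log2 values after RMA (background adjustment, quantile normalization and summarization of probe sets), made per the labels and methods with Partek 7.3.3 and the affy package. The table of 27 arrays was the main one, and that of the 24 inbred arrays an alternative. Of 18952 probe sets, 183 controls were left out. Of the remaining 18769, 13647 have 1 gene, 402 several and 4720 none, and 13544 matched a gene of the reference annotation, assembly Release 6, from which names were taken. No filter on low values was used. Arrays have no read depth, so their number limits the precision.

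Differences were fitted with limma 3.58.1 in R 4.3.3, with the 9 groups of all 27 arrays, a trend in the variance prior, and Benjamini-Hochberg adjustment over 18769 probe sets (threshold 0.05). All groups share 1 spread per probe set, so a group that varies more is given too small an error. The contrast with other lines was the difference in line 7 minus the mean difference of lines 5, 12 and 15. Gene lists (35) were described by counts and medians, without a test. The steps were tested on simulated data. Lines, gene lists and comparisons were chosen with earlier results of these data known.

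The rule for named genes took up to 12 rises and falls past the threshold with and without most depressed replicates 2 and 3, up to 6 that were lost, 4 past it in each list, 6 each way of the contrast, the 6 farthest above and below in these 2 replicates, and fixed markers. Since 1 gene passed the threshold, other names (15 probe sets each way by p, list members at an unadjusted p below 0.05, genes that split the arrays) were chosen after their values were seen. Replicate numbers are not stated to pair sublines. Deviations of same-numbered sublines correlated at 0.06, 0.03 and 0.20, so they were not treated as pairs. The arrays are of separate sublines, and no 2 arrays of the line agreed as copies would (correlations 0.9844 to 0.9956). Alternatives are given in the closing section.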

Additional observations from a re-analysis of the deposited data

How the results depend on the processing

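The count past the adjusted threshold was 1 and became 4 with probe sets of a mean of at least 6, 13 with array weights, 3 without most depressed replicates 2 and 3, and 0 with the 6 arrays alone, with the code range as a covariate and with low codes only. Leaving out 1 array gave 1 to 34, highest without most depressed replicate 1 (34) and least depressed replicate 3 (29), with 2 without most depressed replicate 2. The contrast with the other lines went from 0 to between 0 and 2 with 1 array left out (2 without least depressed replicate 3), and to 1 without most depressed replicates 2 and 3. At an unadjusted p below 0.05 the count of 1516 was 863 in the probe sets with the highest maximum, 950 with a mean of at least 6, 867 with low codes only, 986 without most depressed replicates 2 and 3, and 1037 to 2032 with 1 array left out. A fit with the replicate number as a block gave 1 past the threshold, again *salm* (limma, adjusted p = 0.0464), and 1391 at an unadjusted p below 0.05. *salm* kept its direction in all 17 other fits, between -1.05 and -0.91, and passed the threshold in 14. With the code range as a covariate 2.96% of all probe sets were lower and 3.94% higher at an unadjusted p below 0.05. Lower members were then 12 for the endoplasmic reticulum, 0 for sugar digestion, 0 for the mannosidases, 4 for UDP-glycosyltransferases, 1 for aminoacyl-tRNA synthetases and 5 for muscle and sarcomere. Higher members were 3 for lipid storage, 3 for immune signalling and 1 for fasting. With the 6 arrays alone lower members were 13 for the endoplasmic reticulum, 8 for sugar digestion and 1 for the synthetases, and higher members 2 for the eggshell. The share over all probe sets is not given for that fit. Without both replicates the list medians were -0.56 for sugar digestion, 0.10 for immune signalling and 0.29 for the eggshell. Leaving out most depressed replicate 2 or 3 gave 17 to 28 lower members for the endoplasmic reticulum and 2 to 4 for sugar digestion. It gave 0 to 6 for the mannosidases and 3 to 7 for the synthetases. Of all probe sets 4.19% were lower without replicate 2 and 3.65% without replicate 3. The eggshell had 2 higher members without replicate 2 (against 4.42% of all) and 15 without replicate 3. Of *salm* and the 15 probe sets taken each way by p, 31 in total, none reversed in 548 refits. These were chosen for their differences in the same data, so a reversal was unlikely. In 36 refits a gene came past the threshold, 9 without most depressed replicate 1 and 11 without least depressed replicate 3. Genes named for other reasons are not in this count, and some changed sign. *Mob2* went from -0.63 to 0.50 without most depressed replicate 3, and *Zip102B* from 1.05 to -0.49 with the code range as a covariate. The causes were not tested.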

Other observations

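The cytochrome P450, clock and odorant-binding lists had members in both directions. Of 83 cytochrome P450 probe sets 7 were lower and 3 higher in the most depressed sublines at an unadjusted p below 0.05, 8.43% and 3.61% against 4.3% and 3.78% of all probe sets, with a median of -0.01. *Cyp6a21* was at 8.08, 7.63 and 8.17 against 9.44, 9.02 and 8.67, and *Cyp6w1* at 9.88, 10.17 and 10.12 against 9.56, 9.48 and 8.80. Neither pair of groups overlapped. Of 23 circadian probe sets 1 was higher and 2 lower (4.35% and 8.7%), and of 50 of odorant-binding proteins 1 was higher and 1 lower (2% each). *cwo*, a repressor of the clock, was at 9.71, 9.03 and 8.18 against 10.12, 9.78 and 9.48, and *tim* differed by -0.33 and *vri* by 0.38. *Obp56h*, an odorant-binding protein gene, was at 7.10, 4.73 and 6.26 against 7.53, 6.66 and 7.41, with a control mean of 4.87. *AGO3*, of the piRNA pathway, was at 5.98, 7.01 and 6.45 against 5.77, 5.68 and 5.04, with its highest value in the array that carried the oocyte transcripts. None of these passed the adjusted test of limma.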
